A study of Bos taurus with 5 samples.

Results

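A block of neighbouring genes on the cattle mitochondrial genome was examined in longissimus dorsi, a long muscle of the back: COX1, COX2, ATP8, ATP6, COX3, ND3 and ND4, taken by symbol and in genome order, 7 of the 9022 genes in the table. They were chosen by symbol and position with their FPKM in these 5 libraries already known, so the levels are given as a description, without tests. The material was muscle RNA of 5 Jiaxian Red cattle aged 18 months, with 1 library per animal and all 5 libraries in 1 group. The deposited values were FPKM, which divide fragments by transcript length and by library size, so levels of different genes are compared per length throughout. No treatment, genotype or second tissue was given, so nothing was contrasted between conditions.

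The mitochondrial genome encodes core subunits of the respiratory chain and of ATP synthase, and muscle fibres, which are rich in mitochondria, hold much of its RNA. It is copied into long RNAs that span many genes and are cut mainly where tRNA genes stand between the coding genes. In mammals ATP8 and ATP6 overlap and are carried on a shared messenger RNA, as are ND4L and ND4. COX1, COX2 and COX3 form the core of cytochrome c oxidase (complex IV), ATP6 and ATP8 belong to the membrane part of ATP synthase, and ND3 and ND4 to the membrane arm of complex I.

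The 12 mitochondrial genes in the table stood at the positions that RefSeq gives for assembly ARS-UCD2.0, in 12 of 12 cases, while the submitters' processing notes name the build UMD3.1. RefSeq lists 13 protein-coding genes there, and ND4L, the one with no row, was not analysed here. All 12 had 1 listed transcript each. COX1 ran from base 5687 to 7231 and COX2 from 7374 to 8057, with 142 bases and 2 tRNA genes between them. ATP8 (8129 to 8329) followed COX2 after 71 bases and 1 tRNA gene. ATP8 shared 40 bases with ATP6 (8290 to 8970), and ATP6 shared 1 base with COX3 (8970 to 9750), so no tRNA gene stood between these 3. ND3 (9823 to 10168) lay 72 bases and 1 tRNA gene beyond COX3. ND4 (10529 to 11906) shared 7 bases with ND4L.

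The stretch was split into 3 genes listed at very high levels and 4 listed under 1 FPKM, and the split did not follow the complexes. COX1 and COX2 were among the most abundant RNAs of the table while COX3, from the same enzyme core, was listed near 0. ND3 was high and ND4 low within complex I, and both mitochondrial ATP synthase genes were low. In all, 3 of the 7 reached a mean of 1 FPKM, against 68.0% of all genes; since the members were chosen with these levels known, nothing is read from that difference. The median of the 7 means was 0.179 FPKM, against 3.06 FPKM over all genes.

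**Figure D1:**
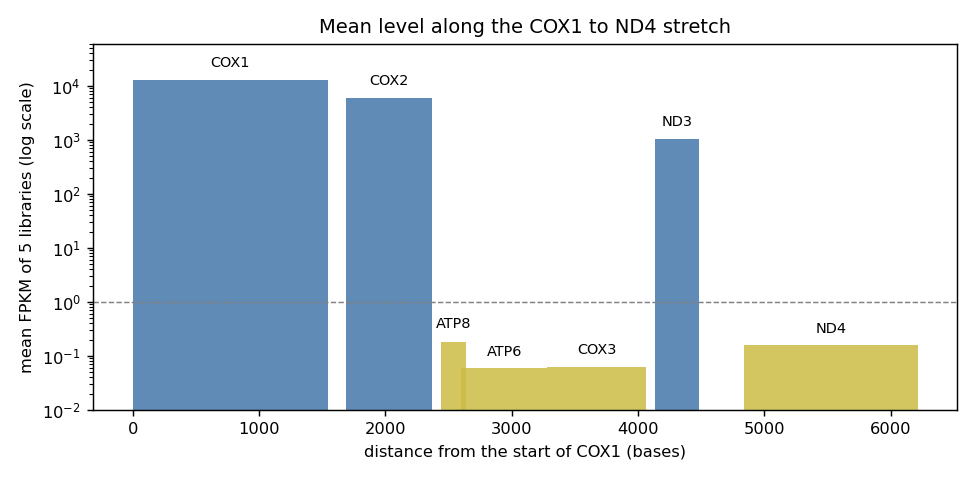
Mean FPKM of the 5 libraries on a log axis against distance from the start of COX1 in bases, each block spanning its gene, with blue blocks above and yellow blocks below the dashed line at 1 FPKM. COX1, COX2 and ND3 stand at 1049 FPKM or above, while ATP8, ATP6, COX3 and ND4 stand at 0.179 FPKM or below.

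COX1, the subunit that carries the site of oxygen reduction, had 12052, 11794, 12437, 16972 and 12117 FPKM in libraries 1 to 5, a mean of 13074 ± 2191 (SD, n = 5). Libraries 1, 2, 3 and 5 lay close together and library 4 lay above them. COX1 had the highest mean of all genes in the table. COX2, which takes electrons from cytochrome c, had 5354, 4702, 5338, 9527 and 5178 FPKM, a mean of 6019.9 ± 1978 (SD, n = 5), rank 4 of all genes. Library 4 was again above the other 4, by more than their whole range. ND3, a small subunit near the quinone site of complex I, had 864, 692, 825, 1807 and 1057 FPKM, a mean of 1049 ± 443.5 (SD, n = 5), rank 28. Library 4 was the highest and library 5 came next.

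ATP8, a small subunit in the membrane base of ATP synthase, was listed at 0.209, 0.160, 0.170, 0.172 and 0.184 FPKM in libraries 1 to 5, a mean of 0.179 ± 0.0187 (SD, n = 5). ATP6, which forms the proton path with the rotor ring, was listed at 0.0562, 0.0917, 0.0536, 0.0466 and 0.0473 FPKM, a mean of 0.0591 ± 0.0187 (SD, n = 5). Library 2 was the one high value of ATP6, and the other 4 lay close together. COX3, the third core subunit of cytochrome c oxidase, was listed at 0.0630, 0.0802, 0.0616, 0.0488 and 0.0581 FPKM, a mean of 0.0623 ± 0.0114 (SD, n = 5). For COX3, too, library 2 was highest and library 4 lowest. ND4, a proton-pumping subunit of complex I, was listed at 0.193, 0.175, 0.147, 0.128 and 0.149 FPKM, a mean of 0.158 ± 0.0254 (SD, n = 5), with library 1 highest and library 4 lowest.

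**Figure D2:**
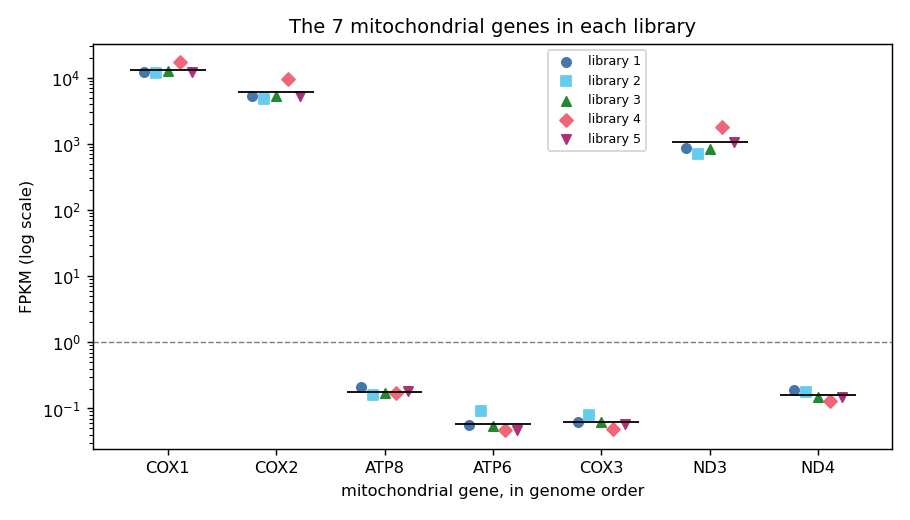
FPKM on a log axis of the 7 genes in genome order, each point a library and each bar the mean of 5, with the dashed line at 1 FPKM. No library places ATP8, ATP6, COX3 or ND4 above 0.209 FPKM, or COX1, COX2 or ND3 below 692 FPKM.

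The 4 low genes were above 0 in every library. Their coefficients of variation were 10.4% for ATP8, 31.6% for ATP6, 18.4% for COX3 and 16.0% for ND4. The table held 1896 genes (21.0%) with a mean below 1 FPKM and values above 0 in every library, and the median coefficient over these was 52.6%. By mean level, 499 genes lay below ATP6, the lowest of the 7. No counts were given, so read depth is unknown and the number of fragments behind such values cannot be given.

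**Figure D3:**
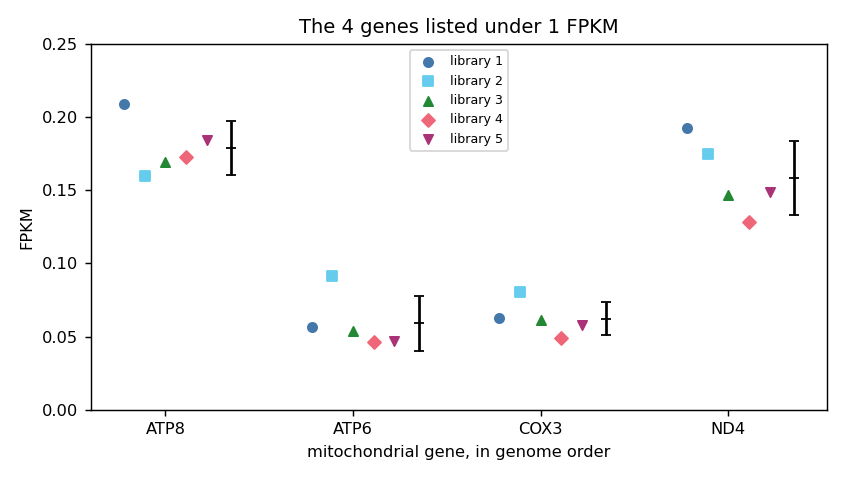
FPKM of ATP8, ATP6, COX3 and ND4 on a linear axis from 0, each point a library, with the mean and SD of 5 libraries at the right of each gene. ATP8 and ND4 lie between 0.128 and 0.209 FPKM, ATP6 and COX3 between 0.0466 and 0.0917, and library 2 is highest for ATP6 and COX3.

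By mean FPKM the order was COX1, COX2, ND3, ATP8, ND4, COX3 and ATP6, and it held in every library at the upper steps but not at the lower ones. COX1 was above COX2 in 5 of 5 libraries, by 1.78 to 2.51 times in FPKM, and the mean log2 ratio of FPKM + 1 was 1.16 ± 0.19 (SD, n = 5). The ratio was smallest in library 4. COX2 was above ND3 in 5 of 5 libraries, by 4.90 to 6.79 times. Between ND3 and ATP8, the step that parts the 3 high genes from the 4 low ones, the FPKM ratio was at least 4141 in every library. ATP8 was above ND4 in 4 of 5 libraries, by a median of 1.16 times, and COX3 was above ATP6 in 4 of 5, by a median of 1.12 times, so neither of these neighbours separated beyond their spread. ND4 was above COX3 in 5 of 5 libraries, by 2.18 to 3.06 times.

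Along the genome the level differed sharply between 3 pairs of successive members. ND4L, which was not listed, lies between ND3 and ND4, so where the level changes there is unknown. From COX2 to ATP8 the mean log2 ratio was 12.27 ± 0.41, from COX3 to ND3 it was -9.86 ± 0.55, and from ND3 to ND4 it was 9.74 ± 0.56 (SD, n = 5, on FPKM + 1, which understates ratios against values under 1). In plain FPKM, COX2 exceeded ATP8 by 25660 to 55240 times. Inside the ATP8, ATP6 and COX3 run no such break appeared. ATP8 was 1.75 to 3.89 times ATP6, and ATP6 was 0.815 to 1.14 times COX3.

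The 4 low genes were also those of the 7 whose span overlapped that of another protein-coding gene. COX1, COX2 and ND3 overlapped none, and nor did ND1, ND2 and CYTB, the other listed mitochondrial genes free of overlap. All 6 of these had means of 1049 FPKM or above. The remaining overlap was between ND5 and ND6, complex I genes that share 17 bases and are coded on opposite strands in mammals. ND5 averaged 432 ± 98.7 FPKM and ND6 averaged 52.6 ± 19.6 FPKM (SD, n = 5), both above 1 FPKM. Whether overlap plays a part in the listed level was not tested. How the authors assigned fragments shared by overlapping genes, or shared with copies of mitochondrial sequence in the nuclear genome, was not given in the sources used here, and its part in these levels was not tested. The listed levels of ATP8, ATP6, COX3 and ND4 are therefore uncertain as measures of their RNA.

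Of the summed FPKM, the block took up 9.67% ± 1.72 (SD, n = 5), almost all of it from COX1 at 6.29% ± 0.751 and COX2 at 2.88% ± 0.792. The share of the whole block was 12.7% in library 4 and 8.42% to 9.43% in the others. The other 5 listed mitochondrial genes held 2.28% ± 0.330. Within the mitochondrial FPKM, COX1 made up 52.9% ± 2.37, COX2 23.8% ± 2.25 and ND3 4.10% ± 0.849 (SD, n = 5), and the 4 low genes together 0.00116% to 0.00240%.

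Differences between the animals came mainly from library 4 for COX1 and COX2, and in part for ND3. On the log2(FPKM + 1) scale the SD over libraries was 0.22 for COX1, 0.41 for COX2 and 0.53 for ND3, against a median of 0.25 over the 6136 genes with a mean of at least 1 FPKM. Without library 4 the SD was 0.03 for COX1, 0.09 for COX2 and 0.25 for ND3. In library 4 COX1 was 1.40 times, COX2 1.85 times and ND3 2.10 times the mean of the other 4 libraries. All 3 were highest in library 4, as were 25.3% of the 6136 genes. For COX1 and COX2 the gap between library 4 and the next library was over 0.71 of the whole range, which held with library 4 as the high one for 0.538% of these genes, and with any library, high or low, for 7.37%. The mean of the other 4 libraries was 12100 ± 265 FPKM for COX1, 5143 ± 304 for COX2 and 859 ± 151 for ND3 (SD, n = 4).

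Library 4 did not raise the listed mitochondrial genes alike. ND1 was 1.53 times, ND2 1.33 times, ND5 1.21 times and CYTB, the complex III subunit, 1.14 times the mean of the other 4 libraries, while ND6 was at 0.861 times. The 4 low genes were below the mean of the other 4 libraries, at 0.955 times for ATP8, 0.749 for ATP6, 0.742 for COX3 and 0.775 for ND4. ATP6, COX3 and ND4 were lowest in library 4, whereas ATP8, at 0.172 FPKM there, lay above libraries 2 and 3. COX2 took 27.8% and ND3 5.27% of the mitochondrial FPKM in library 4, each the largest share of the 5, while COX1 took 49.5%, the smallest. Scaling each library to a fixed total moved the median of all detected genes in library 4 by -0.11 on the log2 scale. With it COX1, COX2 and ND3 stood at 1.28, 1.68 and 1.91 times the mean of the others, and the 4 low genes remained under 1.

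**Figure D4:**
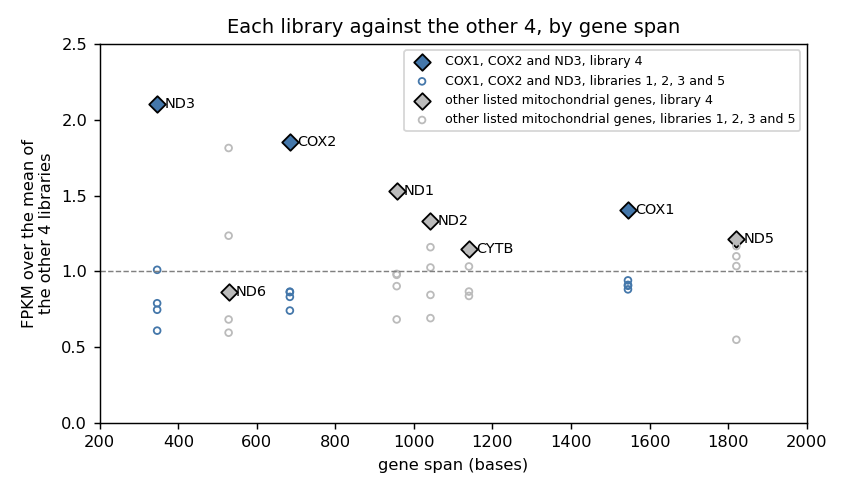
FPKM of each library divided by the mean of the other 4, against gene span in bases, for the 8 mitochondrial genes with a mean of at least 1 FPKM, with diamonds for library 4 and open circles for the other libraries. ND3, COX2 and COX1 stand at 2.10, 1.85 and 1.40 in library 4, and ND6 is the one gene of the 8 that lies below 1 there.

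Library 4 had the highest summed FPKM, 223251 against 193706 to 208505 in the others. That sum includes COX1, COX2 and ND3, which together held 28306 FPKM in library 4 and 17188 to 18600 in the others. The 10 listed of 12 skeletal muscle fibre markers, all with a mean of at least 1 FPKM, summed to 21112 FPKM in library 4, and over the libraries from 18548 to 21112. Of these 10 markers, 2 were highest in library 4 and 5 lay above their own mean there. Their median deviation in library 4 was 0.0071 on the log2 scale. The 2 listed fibroblast markers, COL3A1 and PDGFRA, summed to 641 FPKM in library 4 and ranged from 316 to 651, and the 4 endothelial markers summed to 84.6 FPKM in library 4 and ranged from 77.7 to 90.3. The 2 smooth muscle markers summed to 35.3 FPKM in library 4 (20.5 to 58.0 over the libraries), LPL, the 1 listed adipocyte marker, stood at 64.4 (32.9 to 64.4), the 2 listed leukocyte markers at 3.52 (1.77 to 3.97), and MYH6, the 1 listed heart marker, at 29.2 (27.0 to 41.8). The part of depth, cell makeup or RNA quality in the library 4 values was not tested, and in whole muscle fewer cells of a type and less RNA per cell cannot be told apart.

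Nuclear partners of these complexes were listed at levels between the 2 sets. Of the nuclear complex IV subunits 10 of 17 were listed, with means from 14.5 to 343 FPKM and a median of 144 FPKM. COX7A1, the muscle form of subunit 7A and the most abundant of them, averaged 343 ± 103 FPKM, COX4I1 averaged 212 ± 33.4 FPKM and the muscle subunit COX6A2 208 ± 154 FPKM (SD, n = 5). COX1 stood at 38.1 times the mean of COX7A1 per length, whereas COX3 lay below all 10. COX6A2 and COX8B, at 181 ± 61.5 FPKM, varied most between the libraries.

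For ATP synthase, 13 of 40 symbols, older and newer names counted apart, were listed, with means from 20.5 to 325 FPKM and a median of 134 FPKM. ATP5F1A, a subunit of the catalytic head, averaged 325 ± 58.6 FPKM, ATP5MG 230 ± 63.1 FPKM and ATP5ME 184 ± 42.6 FPKM (SD, n = 5), against the listed 0.0591 FPKM of ATP6 and 0.179 FPKM of ATP8. ATP5MC1, a gene of the rotor ring, varied most together with ATP5MG and averaged 45.0 ± 13.4 FPKM. For complex I, 26 of 37 symbols were listed, 24 with a mean of at least 1 FPKM, at a median of 78.8 FPKM. NDUFV2, NDUFB8 and NDUFS5 led with 157 ± 34.8, 149 ± 30.0 and 142 ± 24.0 FPKM (SD, n = 5). NDUFC1, at 73.8 ± 24.0 FPKM, and NDUFS8, listed at 0 in libraries 2, 3 and 5 and at 32.4 and 45.1 FPKM in libraries 1 and 4, varied most among those 24. None of the listed genes in the 3 lists reached the level of ND3.

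**Figure D5:**
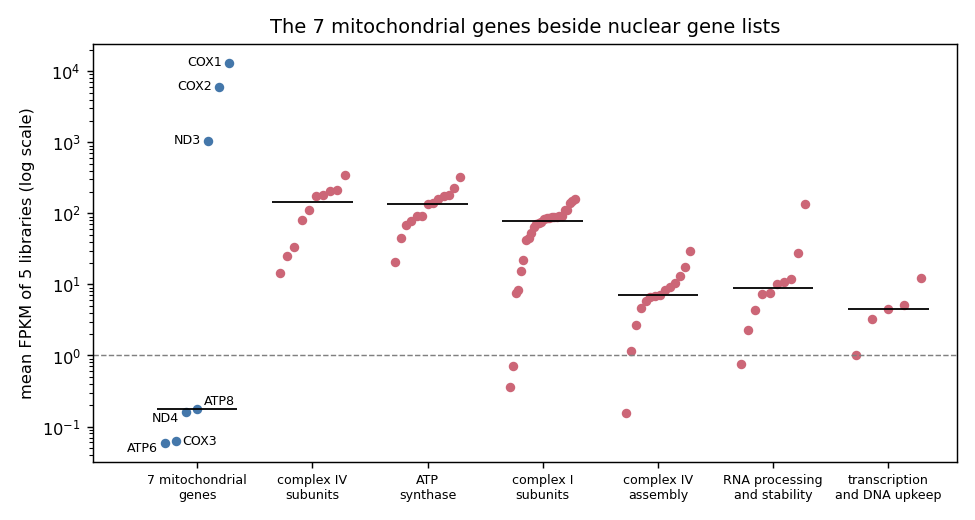
Mean FPKM of the 5 libraries on a log axis for the 7 mitochondrial genes (blue) and for the listed members of 6 nuclear gene lists (red), each point a gene, with bars at the medians and the dashed line at 1 FPKM. COX1, COX2 and ND3 lie above every nuclear point, up to 343 FPKM, and ATP6 and COX3 lie below the lowest, 0.153 FPKM.

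The high library 4 values of COX1, COX2 and ND3 went with high values of nuclear subunits in the same library. Of the nuclear complex IV subunits 9 of 10 were highest in library 4, of the ATP synthase genes 13 of 13 and of the detected complex I genes 22 of 24, against 25.3% of all detected genes. Among the detected genes of the other nuclear lists, 7 of 13 for complex IV assembly, 5 of 9 for RNA processing and stability and 2 of 5 for transcription and DNA upkeep were highest there. The median deviations of these lists in library 4 were 0.25, 0.19 and 0.23 on the log2 scale. The median deviation from a gene's own mean in library 4 was 0.71 on the log2 scale for COX1, COX2 and ND3 together, against 0.48, 0.31 and 0.40 for the complex IV, ATP synthase and complex I lists and 0.02 for all detected genes. The lists were chosen with earlier results of these data known, and the values are given as a description. In library 3 COX1, COX2 and ND3 deviated by -0.06, -0.12 and -0.26 from means that include their high library 4 values. The complex IV, ATP synthase and complex I lists had median deviations of 0.20, 0.19 and 0.12 there. COX1 in library 3, at 12437 FPKM, was nevertheless above libraries 1, 2 and 5, and COX2, at 5338 FPKM, above libraries 2 and 5. ND3, at 825 FPKM, was above library 2 only.

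Genes that serve mitochondrial RNA and complex IV assembly were far below COX1, COX2 and ND3. Of 25 symbols for mitochondrial RNA processing and stability, older and newer names counted apart, 10 were listed, at a median of 8.93 FPKM. SLIRP and LRPPRC, which together bind and stabilise mitochondrial messenger RNA, averaged 134 ± 35.5 and 27.6 ± 2.61 FPKM, and PNPT1, a mitochondrial RNA-degrading enzyme, 11.8 ± 1.26 FPKM (SD, n = 5). Among those with a mean of at least 1 FPKM, PTCD3 and FASTK varied most, at 7.61 ± 2.69 and 4.40 ± 2.49 FPKM. Of 16 symbols for mitochondrial transcription and DNA upkeep, counted in the same way, 5 were listed. POLG, the mitochondrial DNA polymerase, averaged 12.3 ± 2.38 FPKM, MTERF1 5.09 ± 1.49 FPKM and TFAM, which packages mitochondrial DNA and helps start its transcription, 4.57 ± 1.74 FPKM (SD, n = 5). Of 25 complex IV assembly genes 14 were listed, led by COA3, at 29.1 ± 9.80 FPKM, COX14, at 17.6 ± 9.94, and COX16, at 13.1 ± 3.61 (SD, n = 5). COA3 and COX14, which in human cells act in the early steps of building COX1 into the complex, were both highest in library 4. They stood at 44.5 and 27.1 FPKM there. COX16, which in human cells acts in COX2 maturation, was lowest there, at 6.83 FPKM. Of the 13 detected assembly genes 7 were highest in library 4 and 9 lay above their own mean there. No difference between COX1 and COX2 factors is read from the named genes. COX14 and COA6 varied most, with COX14 at 1.52 FPKM in library 3 and COA6 from 0.419 to 13.0 FPKM.

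Among 1908 nuclear genes with a symbol and a mean of at least 10 FPKM, those whose profile over the 5 libraries was most like each high member were found by the root mean square difference of centred log2 values. For COX1 they were ARL1, a Golgi GTPase, at a difference of 0.04, CISD1, an iron-sulfur protein of the outer mitochondrial membrane, at 0.05, and TTC37, at 0.05. For COX2 they were the myosin light chain gene MYL6B and the ribosomal protein gene RPS19, each at 0.10, and ATP5ME, at 0.12. For ND3 they were the histone gene H2B at 0.12 and the ribosomal protein genes RPS23 and RPS12 at 0.15 and 0.16. By the same measure COX1 lay 0.17 from COX2, COX2 lay 0.18 from ND3, and COX1 lay 0.30 from ND3. With each library left out in turn at most 2 of these 9 genes were again among the nearest, so which genes come nearest depends on the libraries used. H2B and the ribosomal protein genes have near-identical copies whose fragments the counting may have split.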

How the data were processed

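RNA-seq of longissimus dorsi from 5 cattle was used, 1 library per animal, numbered as in the labels. Per the file headers, the authors deposited FPKM per listed transcript in each library. Some genes, such as ND4L, have no row, so ranks and shares cover the listed genes only. HTSeq 0.6.0, DESeq2 1.10.1 and build UMD3.1 stand in the submitters' processing notes with no role stated. The aligner and the FPKM program are not given in the sources used here. FPKM of 13391 transcripts were summed over 9022 genes. Depth is unknown, as no counts were given, so no counting interval was computed. Spread used log2(FPKM + 1), and detected genes had a mean of at least 1 FPKM (6136 genes). A library was called distant where its gap to the nearest, over the whole range, passed 0.71, on the log2 scale for genes.

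The members and the 6 nuclear lists were chosen with earlier results of these data known. With 1 group, and members chosen on their levels, no test was made. Named genes were the members, other mitochondrial genes, the 3 highest and, among detected genes, the 2 most variable of each list, and the 3 nearest profiles of each detected member. The cell type markers named beside library 4 came from a fixed marker list. The profile search and the gap rule were tested on simulated data. Python 3.11.15, numpy 2.4.6, pandas 2.3.3 and matplotlib 3.10.9 were used. Alternatives were other pseudocounts, detection limits, scalings and lengths, and leaving out each library.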

Additional observations from a re-analysis of the deposited data

Results flagged for a closer look

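Several values had 1 library far from the other 4, with a gap of over 0.71 of the whole range. About 1 in 20 sets of 5 values passes by chance, and 7.37% of the 6136 detected genes passed. On the log2(FPKM + 1) scale library 4 was the distant, high one for COX1 (gap 0.854 of the range) and COX2 (0.816), as it was for 0.538% of the detected genes, and library 2 the high one for ATP6 (0.783). ND5 was low in library 5 (0.810). The share of the 7 genes in the summed FPKM was high in library 4 (0.762), as were the shares of COX1 (0.756) and COX2 (0.765). So was the log2 ratio of COX2 over ATP8 (0.8294).

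Among nuclear genes ARL1 (0.738), CISD1 (0.718), TTC37 (0.739), MYL6B (0.737), RPS19 (0.722) and ATP5ME (0.735) were high in library 4. These were picked for their likeness to COX1 or COX2, whose library 4 values are themselves distant. COX16 was low in library 4 (0.772), COX14 low in library 3 (0.813) and MTERF1 low in library 1 (0.821).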

How the results depend on the processing

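Of 296 values recomputed under alternatives 242 stayed within 1 SD, or within 1.5 times for counts and spreads. For levels, log2 ratios and shares, leaving out 1 of the 5 libraries cannot move a mean by 1 SD. Those values stayed by construction, so the 242 is no measure of stability. Every log2 ratio between successive members kept its sign with each library left out. For ATP6 over COX3, at -0.0045 ± 0.012 (SD, n = 5), nothing is read from the kept sign, because the mean lies inside its spread. COX1, COX2 and ND3 were the members over the limit with any library left out, at 5 FPKM and at 1 FPKM in every library. A limit of 0.1 FPKM passed 5 members (ATP8 and ND4 added), and all 7 were above 0. Rescaling each library to a total of 1000000 multiplies every level by construction, to means of 62907 for COX1, 28822 for COX2, 5008 for ND3, 0.868 for ATP8, 0.771 for ND4, 0.303 for COX3 and 0.287 for ATP6. The spread of the low genes depends on the added 1 FPKM. For ATP8, ATP6, COX3 and ND4 it was 0.095, 0.10, 0.070 and 0.13 after that rescaling, 0.095, 0.16, 0.10 and 0.14 with a pseudocount of 0.1, and 0.15, 0.40, 0.26 and 0.23 with none, a choice made after seeing the data. With a pseudocount of 0.1 the log2 ratio was 14.35 for COX2 over ATP8, 0.82 for ATP8 over ATP6, -0.034 for ATP6 over COX3, -12.57 for COX3 over ND3 and 11.91 for ND3 over ND4. On FPKM times span in kilobases, with 1 added, it was 2.33 for COX1 over COX2 and 3.54 for COX2 over ND3. It was -0.0058 for ATP8 over ATP6, which turned its sign, -8.35 for COX3 over ND3 and 8.14 for ND3 over ND4. With an assumed effective length, span minus 150 bases, and 1 added, these ratios were 0.95, 2.09, 0.66, -10.66 and 10.53. On the span scale the added 1 outweighs the products of the low genes. Ratios that involve them are understated there, and their smaller size is not read as an effect of length. Shares of mitochondrial FPKM times span were 67.8% for COX1, 13.5% for COX2, 1.18% for ND3, 0.00012% for ATP8 and 0.00017% for COX3. Without unnamed genes in the total the block held 11.9%. At 5 FPKM 2 transcription and DNA upkeep genes remained. With each library left out in turn the SD on the log2 scale ran from 0.032 to 0.25 for COX1, 0.088 to 0.46 for COX2, 0.25 to 0.61 for ND3, 0.012 to 0.026 for ATP8, 0.0065 to 0.029 for ATP6 and 0.0088 to 0.018 for COX3, lowest without library 4 for the high genes, without library 1 for ATP8 and without library 2 for ATP6 and COX3, and 0 to 2 of the 9 nearest genes came up again. The share of FPKM times span over all genes was not run, because spans of nuclear genes hold introns. No paired analysis was possible because all libraries form 1 group. Depth is unknown, which limits what the values under 1 FPKM can show.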

Other observations

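The library 4 values of the 8 high mitochondrial genes are set here beside gene span, and they did not follow one order throughout. ND3 (346 bases) stood at 2.10 times the mean of the other 4 libraries, COX2 (684 bases) at 1.85, ND1 (956 bases) at 1.53, ND2 (1042 bases) at 1.33, CYTB (1140 bases) at 1.14, COX1 (1545 bases) at 1.40 and ND5 (1821 bases) at 1.21. ND6 (528 bases) stood at 0.861. From ND3 through COX2, ND1 and ND2 to CYTB the value fell with span, but ND6 lay below all of these, and COX1 and ND5 lay above CYTB. The order was seen in the data and was not tested.

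Multiplying mean FPKM by span, a measure of relative fragments rather than of level per length, brought 3 of the low genes close together. The product was 36.0 for ATP8, 40.2 for ATP6 and 48.7 for COX3, against 218 for ND4. On this scale ND4 came first of the 4 low genes and ATP8, the first per length, came last.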
